A study of Rattus norvegicus with 6 samples.

Results

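Genes of the cell cycle and of DNA replication were examined in purified beta cells of the rat pancreas, the cells that make insulin. The genes were chosen by name. They comprise 46 names, from the cyclins, cyclin-dependent kinases (Cdks) and Cdk inhibitors to the replication licensing factors, the Mcm helicase, replication fork enzymes, mitotic regulators and the recombination protein Swi5. All 46 names were found in the assembly. Because Hells and Rrm2 were each assembled at 2 loci, they make 48 of the 24579 gene models (a locus together with a gene name), and all 48 had enough reads to be tested.

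The title of the series concerns Nova1, an RNA-binding protein of neurons known for its control of alternative splicing, and its role in these cells. Rat primary beta cells were sorted by fluorescence in 3 batches, and each batch was studied under control and Nova1 knockdown conditions, which gives 3 libraries a group. Both groups were transfected with 30 nM siRNA in a lipid reagent for 16 h and cultured for 48 h more before poly(A) RNA was sequenced. The control was the Allstars Negative Control siRNA, so no library came from untransfected cells. The labels name no strain, age or number of animals. Whether each batch was a separate set of animals is not stated. A p-value here reflects only these 3 batches, with the variance of each gene drawn by limma towards that of all genes tested.

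Control libraries held 122637234 to 292432076 assigned reads and knockdown libraries 95394043 to 146453308, and the control was the deeper library in every batch. Nova1 was measured at 20.6, 21.5 and 17.4 CPM (estimated reads corrected for the size of the library) in control batches 1, 2 and 3 and at 7.76, 10.2 and 9.43 CPM after knockdown. The groups did not overlap, and the log2 fold change was -1.12 (SE 0.11, adjusted p = 0.038 in limma). In RPKM (reads corrected for depth and also for transcript length) the groups overlapped, with control batches at 5.06, 2.83 and 2.03 and knockdown batches at 1.38, 2.38 and 1.81. The difference did not pass limma's test on log2(RPKM + 1), at -0.54 (adjusted p = 0.33), or on log2(RPKM + 0.1), at -0.73 (adjusted p = 0.33). Summed over 12 beta cell markers, the level was 295900 to 481133 RPKM in control libraries and 220666 to 485548 RPKM in knockdown libraries. Ins1 and Ins2 led the list, and G6pc2 was at or near 0 in every library. In bulk RNA, fewer cells of a type and less RNA per cell cannot be told apart.

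As background, a cell leaves the resting state when D-type cyclins activate Cdk4 and Cdk6, which phosphorylate the retinoblastoma protein and free E2F factors to switch on replication genes. Origins are bound by the origin recognition complex, Cdc6 and Cdt1 load the Mcm helicase, and cyclin E and cyclin A with Cdk2 start DNA synthesis. Cyclin B with Cdk1 drives mitosis. Adult beta cells are mostly quiescent, and cyclin D2 and Cdk4 are known to be needed for normal beta cell mass in rodents.

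Promoter sequences show how E2F and mitotic control elements are spread over these genes. RefSeq promoters on the assembly GRCr8 were found for 33 of the 46 names, and the 250 bases before each start site were searched on both strands. The E2F motif was TTTCCCGC, TTTCGCGC, TTTGCCGC or TTTGGCGC. The cell cycle genes homology region (CHR), a site of late cell cycle genes, was TTTGAA or TTCGAA, and the third motif was the CCAAT box, CCAAT. An E2F motif was in 27.3% of these promoters (9 of 33) and in 1.73% of all 33469 promoters. A CHR was in 27.3% (9 of 33) against 17.4% of all, and a CCAAT box in 54.5% (18 of 33) against 34.0% of all. A match is a description of the letters and not a bound site, and the letters missing from this window say nothing of the factor. Shown here are the 4 genes whose level changed (Swi5, Ccnd3, Cdkn1a and Hells) and Mcm5 and Cdk1, with E2F and CCAAT motifs in both, with each match in capitals on either strand. The windows are chr3:35981505-35981754 (minus strand) for Swi5, chr9:20897876-20898125 (minus) for Ccnd3, chr20:7150682-7150931 (plus) for Cdkn1a, chr1:246113879-246114128 (plus) for Hells, chr19:13488563-13488812 (plus) for Mcm5 and chr20:19265043-19265292 (plus) for Cdk1.
Swi5: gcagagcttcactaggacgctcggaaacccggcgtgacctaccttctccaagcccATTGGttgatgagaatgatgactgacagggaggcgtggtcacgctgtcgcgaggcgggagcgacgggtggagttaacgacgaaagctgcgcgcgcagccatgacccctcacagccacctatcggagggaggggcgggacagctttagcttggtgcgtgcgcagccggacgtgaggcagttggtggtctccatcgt
Ccnd3: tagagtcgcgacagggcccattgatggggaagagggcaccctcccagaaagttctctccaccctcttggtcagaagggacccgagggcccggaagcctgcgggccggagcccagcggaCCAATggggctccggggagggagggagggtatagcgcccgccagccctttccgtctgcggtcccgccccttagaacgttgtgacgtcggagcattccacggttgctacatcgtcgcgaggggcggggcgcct
Cdkn1a: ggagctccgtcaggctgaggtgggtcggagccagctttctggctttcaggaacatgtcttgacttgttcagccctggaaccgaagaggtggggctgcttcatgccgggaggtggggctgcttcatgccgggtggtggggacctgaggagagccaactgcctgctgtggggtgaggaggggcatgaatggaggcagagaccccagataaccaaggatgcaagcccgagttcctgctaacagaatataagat
Hells: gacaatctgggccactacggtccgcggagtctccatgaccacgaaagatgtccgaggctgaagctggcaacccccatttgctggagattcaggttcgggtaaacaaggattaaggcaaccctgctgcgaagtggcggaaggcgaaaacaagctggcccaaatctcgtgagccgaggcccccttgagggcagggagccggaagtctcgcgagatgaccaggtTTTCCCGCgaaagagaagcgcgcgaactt
Mcm5: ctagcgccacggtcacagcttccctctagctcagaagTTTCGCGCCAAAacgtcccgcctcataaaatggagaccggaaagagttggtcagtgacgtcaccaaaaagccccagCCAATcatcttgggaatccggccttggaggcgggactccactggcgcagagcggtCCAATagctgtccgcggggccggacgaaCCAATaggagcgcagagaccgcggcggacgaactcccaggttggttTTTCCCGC
Cdk1: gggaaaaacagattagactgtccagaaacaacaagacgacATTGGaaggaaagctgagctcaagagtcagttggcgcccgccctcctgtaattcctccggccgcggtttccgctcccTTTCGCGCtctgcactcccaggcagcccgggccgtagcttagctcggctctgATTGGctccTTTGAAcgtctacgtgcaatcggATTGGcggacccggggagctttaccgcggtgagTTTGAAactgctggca
The Hells window holds 1 E2F motif and no other, and the Cdkn1a window holds none of the 3 motifs. The Mcm5 window holds 3 E2F motifs, of which the first pair overlap, and 3 CCAAT boxes. The Cdk1 window holds 1 E2F motif, 2 CHRs and 3 CCAAT boxes. Swi5 and Ccnd3 each have a single CCAAT box.

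The genes differed widely in level. On the RPKM scale, which allows genes to be compared, Ccnd2 (cyclin D2) was the highest at 168 to 200.2 RPKM over the 6 libraries. Cdk4 followed at 58 to 96.9 RPKM. Swi5 spanned 37.4 to 81.5 RPKM, and Ccnd1 (cyclin D1) 38.9 to 70.2 RPKM, and the ranges of these 3 overlapped. Cdk6, the other kinase partner of the D cyclins, lay at 0.0994 to 0.167 RPKM, below Cdk4 in every library. The 12 models of S phase and mitosis, from Ccna2 to Mki67, summed to only 6.51 to 8.48 RPKM a library. In all, 27 of the 48 models reached 1 RPKM in the mean of a group, and 21 stayed below it in both.

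**Figure D1:**
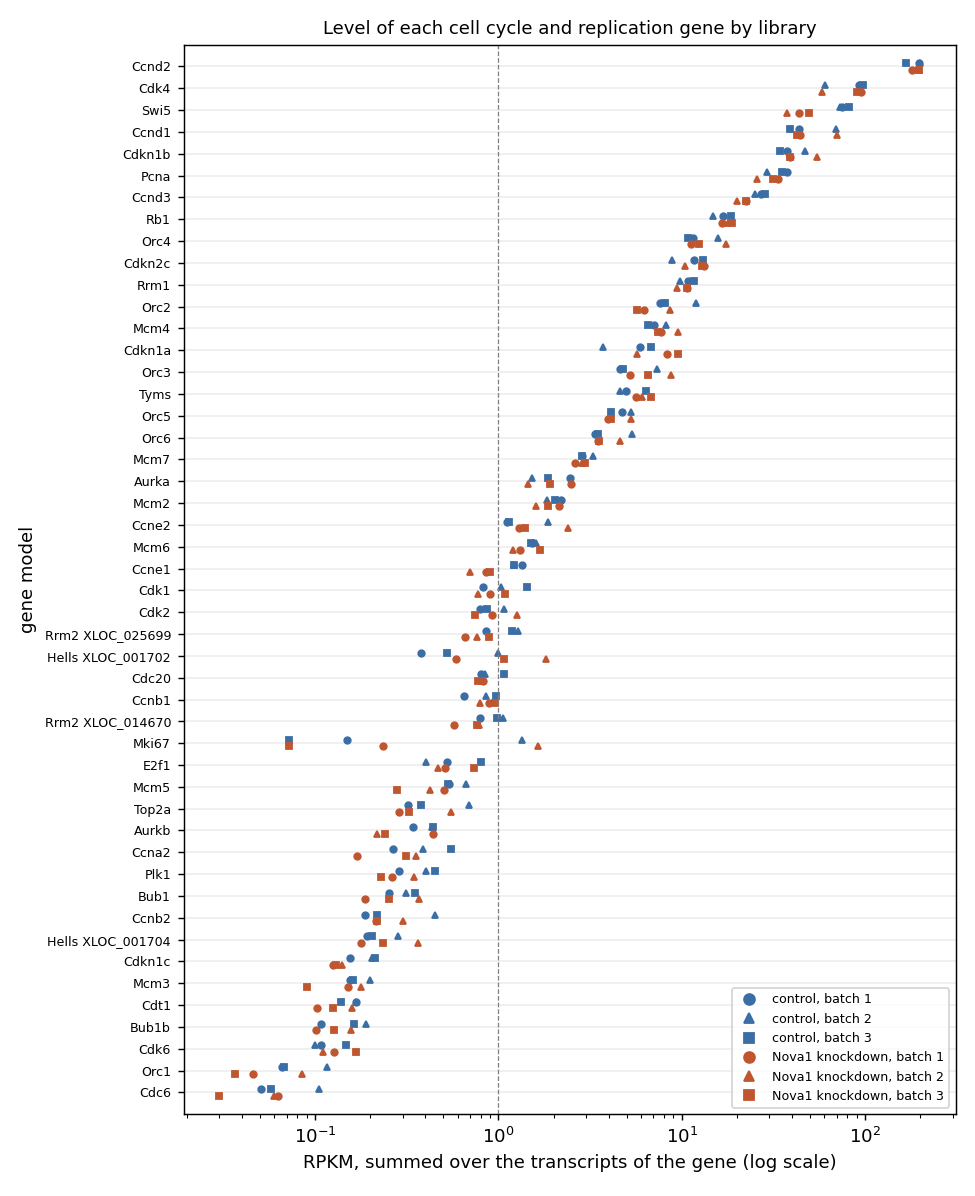
RPKM of the 48 gene models in each of the 6 libraries (log axis), ordered by their mean, with colour for the group and shape for the batch. Ccnd2 and Cdk4 lie at the top, most genes of S phase and mitosis lie under the dashed line at 1 RPKM, and Mki67 of batch 2 stands apart from the other batches.

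After Nova1 knockdown, 4 of the 48 models changed at an adjusted p below 0.05 in limma. Swi5 and Ccnd3 fell, and Cdkn1a and the Hells model XLOC_001702 rose. That is 8.33% of the models, where 1.71% of all 15983 genes tested were called (0.513% up and 1.20% down). The members were named with earlier results of these data known, so nothing is read from the difference between these shares. Before adjustment 13 models had p under 0.05, or 27.1%, and 23.9% of all genes did. All calls in these data lie between adjusted p values of 0.036 and 0.049, so each is near the threshold. No member was called without the batch block, without batch 1 or without batch 2, and only Swi5 was called without batch 3. Nova1 itself was not called without the block, without batch 1 or without batch 2. On log2(RPKM + 1) or log2(RPKM + 0.1) none of the 4 passed.

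Swi5, a protein that works with Sfr1 in homologous recombination, had the largest fall. Its control libraries were at 58.4, 52.5 and 65.9 CPM in batches 1, 2 and 3, and its knockdown libraries at 34, 25.5 and 38.1 CPM. Every knockdown library was below every control library. The means were 59 ± 6.71 CPM in control and 32.5 ± 6.42 CPM in knockdown libraries (SD, n = 3). On the log2 scale the change was -0.86 (SE 0.069, adjusted p = 0.036 in limma). The gene lies at chr3:16656851-16665969 on the minus strand of Rnor_5.0 and has 1 assembled transcript, with no overlapping gene model. Over all settings tried the log2 fold change stayed between -0.91 and -0.75.

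Ccnd3 encodes cyclin D3, the third of the D cyclins. It was at 55.1, 46.8 and 60 CPM in control and at 45, 35.3 and 45.1 CPM in knockdown libraries, again without overlap. The log2 fold change was -0.37 (SE 0.052, adjusted p = 0.046 in limma), or -0.29, -0.41 and -0.41 in batches 1, 2 and 3. Its 2 transcripts lie at chr9:14326184-14332372 on the minus strand of Rnor_5.0. The fall missed the threshold, at adjusted p values of 0.0502 to 0.058, with library totals alone, scaling factors from all genes, no filter or a stricter filter.

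Cdkn1a, the p53 target that encodes the Cdk inhibitor p21, rose in each batch. It was at 12.3, 7.14 and 14.7 CPM in control and 17.2, 10.3 and 19.6 CPM in knockdown libraries. The groups overlapped, since knockdown batch 2 was below control batches 1 and 3, and the difference lies within batches. The log2 fold change was 0.47 (SE 0.059, adjusted p = 0.045 in limma), with 0.48, 0.53 and 0.42 in batches 1, 2 and 3. Its models lie at chr20:8592437-8602879 on the plus strand of Rnor_5.0 with no overlapping gene. The adjusted p was 0.053 with scaling factors from all genes and 0.0504 with the stricter filter.

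Hells, a chromatin remodeller of the Snf2 family that supports DNA methylation, was assembled at 2 loci on chromosome 1. XLOC_001702 was at 1.27, 3.07 and 1.83 CPM in control and 1.97, 5.34 and 3.57 CPM in knockdown libraries, higher within each batch but overlapping between groups. Its log2 fold change was 0.81 (SE 0.11, adjusted p = 0.046 in limma). This model at chr1:265106339-265148860 (Rnor_5.0, plus strand) lies wholly inside the locus of Tbc1d12 on the same strand, an overlap of 42522 bp, so reads of the 2 genes could be exchanged. The other locus, XLOC_001704, was at 0.645, 0.875 and 0.713 CPM in control and 0.593, 1.07 and 0.786 CPM in knockdown libraries (log2 fold change 0.11, adjusted p = 0.74 in limma). With the reads of both loci summed, the log2 fold change was 0.65 and the adjusted p 0.057, which ended the call. The call of XLOC_001702 was also lost with library totals alone (adjusted p = 0.0507), with scaling factors from all genes before the filter (0.053), with no filter (0.0502) and with the stricter filter (0.0504).

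**Figure D2:**
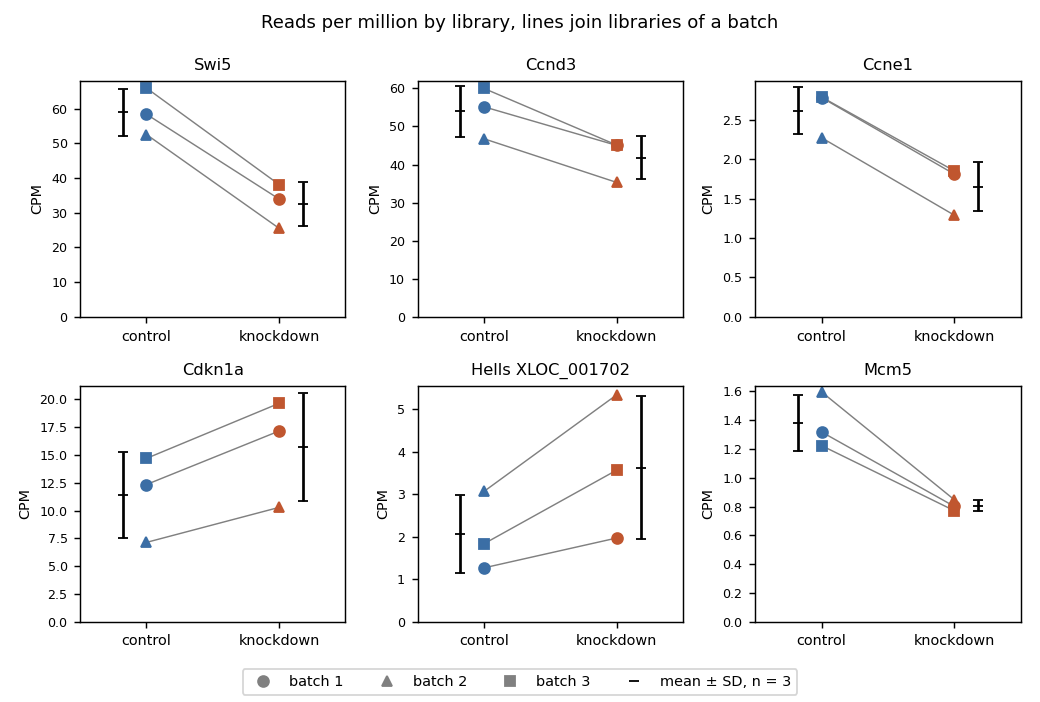
CPM of 6 gene models in control and knockdown libraries (linear axis from 0), with a line for each batch and the mean ± SD (n = 3) beside the points. Swi5, Ccnd3, Cdkn1a and Hells XLOC_001702 were called, while Ccne1 and Mcm5 missed the threshold although their groups do not overlap.

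Most models were lower rather than higher after knockdown, and 44 of the 48 did not pass the test. The counts that follow include the 4 called models and both models of Hells and of Rrm2. Of the 48 models, 32 had a negative log2 fold change (66.7%), where 49.2% of all genes did. 20 were lower in all 3 batches (41.7% against 24.3% of all genes) and 7 were higher in all 3 (14.6% against 25.8%). On the CPM scale 9 models had every knockdown library below every control library (4.10% of all genes did), and 0 had every one above (3.96%). The median log2 fold change was -0.12, beside 0.0035 over all genes tested. In the batches the members' median was -0.047, -0.15 and -0.15.

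Models of low level were mostly negative. Of the 21 models under 1 RPKM, 17 were negative, 11 were lower in all 3 batches and the median was -0.29. Of the 27 above it, 15 were negative and the median was -0.042. The same counts over all genes of low level are not given here, so these are not read as a trait of the members. The lowest models rest on few reads, with 12 to 40 a library for Cdc6 and 16 to 60 for Orc1. None of the 21 passed limma's test, and 4 had p under 0.05 before adjustment. Within each batch the knockdown library was the shallower one, and the part of depth in these values was not tested.

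**Figure D3:**
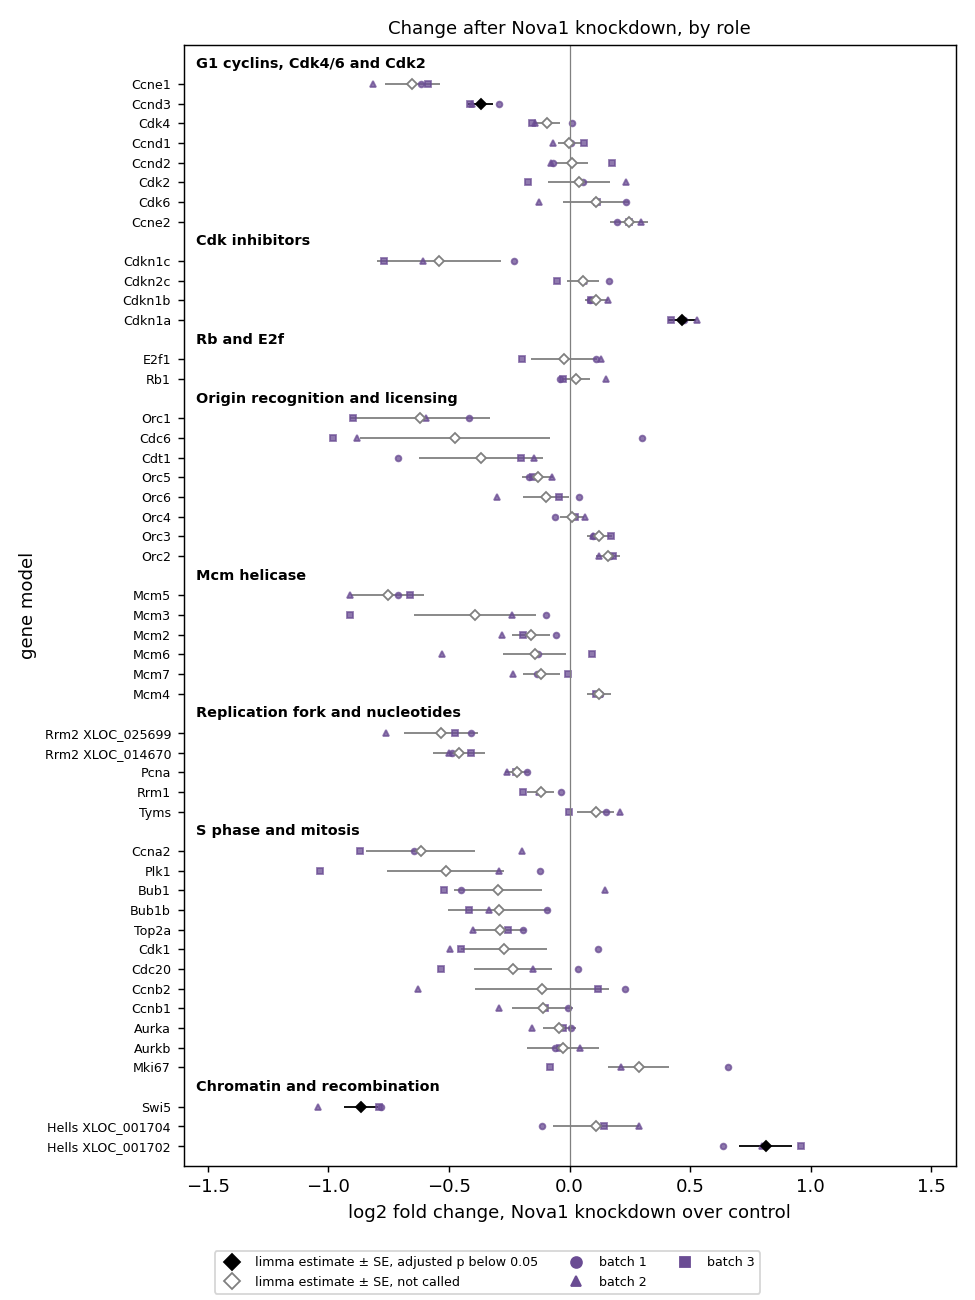
Log2 fold change of each gene model, knockdown over control, grouped by role, as the limma estimate ± SE (diamonds, filled where called) with the value in each batch. Swi5 and Ccnd3 lie to the left and Cdkn1a and Hells XLOC_001702 to the right, and most genes of the Mcm helicase, the replication fork, S phase and mitosis lie left of 0.

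Some of the models described next overlap a gene on the opposite strand (Cdkn2c, Ccne2, Cdk4, Mcm4, Mcm7, Orc2, Orc3, Orc4, Rb1, Aurka and Ccna2). Whether the authors counted by strand is not given in the sources used here, and reads of such a pair may be mixed. Among the 8 models of G1 cyclins and their kinases, 4 were negative and only Ccnd3 was called. Ccnd2 was at 895, 827 and 798 CPM in control and 853, 785 and 902 CPM in knockdown libraries, with a log2 fold change of 0.011 (adjusted p = 0.94 in limma). Ccnd1 was at 176, 259.5 and 163 CPM in control and 177, 248 and 170.1 CPM after knockdown (log2 fold change -0.00082). Batch 2 was the highest batch for Ccnd1 in both groups and the lowest for Cdk4. Cdk4, the main kinase partner of the D cyclins, was at 119, 72 and 129 CPM in control and 120.3, 65.1 and 116 CPM in knockdown libraries. None of these 3 passed the test, and their groups overlapped.

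The E cyclins, which activate Cdk2 at the start of S phase, had opposite signs. Ccne1 was at 2.78, 2.27 and 2.79 CPM in control and 1.81, 1.29 and 1.85 CPM in knockdown libraries. Ccne2 was at 3.59, 5.51 and 3.79 CPM in control and 4.12, 6.77 and 4.49 CPM after knockdown. The log2 fold change of Ccne1 was -0.65 (SE 0.11, adjusted p = 0.063 in limma), and with a correction for transcript length the adjusted p was 0.044. That of Ccne2 was 0.25 (SE 0.079, adjusted p = 0.15 in limma). Neither passed, although no knockdown library of Ccne1 reached any control library. Cdk2 and Cdk6 had group means under 1 RPKM, with log2 fold changes of 0.04 and 0.11.

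Of the 4 Cdk inhibitors, Cdkn1a alone was called. Cdkn1b, which encodes p27 and was the highest of the 4 in RPKM (34.2 to 54.9), was at 73.9, 84.1 and 72.7 CPM in control and 78.3, 94 and 77.4 CPM in knockdown libraries (log2 fold change 0.11, adjusted p = 0.23 in limma). Cdkn2c, which encodes the Cdk4 and Cdk6 inhibitor p18, was at 16.7, 12 and 18.4 CPM in control and 18.7, 12.5 and 17.7 CPM after knockdown. Cdkn1c, which encodes p57, had group means under 1 RPKM, with 26 to 86 reads a library and a log2 fold change of -0.54 (adjusted p = 0.27 in limma). Rb1, the retinoblastoma protein that holds E2F in check, was at 68.7, 58.6 and 76.7 CPM in control and 66.9, 65.1 and 75.3 CPM in knockdown libraries. Its log2 fold change was 0.025, and that of E2f1, with group means under 1 RPKM, was -0.024. Neither Rb1 nor E2f1 had p under 0.05 before adjustment.

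The origin recognition complex was expressed apart from its first subunit. Orc2 to Orc6 lay above 1 RPKM, while Orc1, which like Cdc6 is a known E2F target gene, lay at 0.0365 to 0.116 RPKM. Orc4 was at 75.8, 88.8 and 73.9 CPM in control and 72.8, 92.9 and 74.9 CPM in knockdown libraries. Orc3 was at 25.8, 36.2 and 27.5 CPM in control and 27.6, 38.7 and 31 CPM after knockdown. Orc2 went from 22.2, 29.6 and 23.1 CPM to 25, 32.2 and 26.2 CPM, higher within each batch by 0.17, 0.12 and 0.18 on the log2 scale. Of the 8 models of origin recognition and licensing 5 were negative, 0 were called in limma and 1 (Orc2) had p under 0.05 before adjustment. Orc5 was at 10.2, 11.7 and 10.4 CPM in control and 9.11, 11.1 and 9.33 CPM in knockdown libraries. Orc6 was at 5.11, 7.54 and 5.55 CPM in control and 5.26, 6.12 and 5.39 CPM after knockdown. The log2 fold changes of Orc1, Cdc6 and Cdt1 were -0.62, -0.47 and -0.37, with standard errors of 0.29, 0.39 and 0.26.

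Of the 6 subunits of the Mcm helicase, which unwinds DNA at the fork, 5 were negative and 4 were lower in all 3 batches. Limma called 0 of them, and 1 (Mcm5) had p under 0.05 before adjustment. Mcm4 was the highest of the 6 in RPKM (6.58 to 9.53). It was at 25, 27 and 24.2 CPM in control and 27.3, 29.5 and 26.1 CPM in knockdown libraries, and was the only subunit with a positive log2 fold change (0.12, adjusted p = 0.22 in limma). Mcm5, whose promoter with 3 E2F motifs is printed above, was at 1.32, 1.6 and 1.22 CPM in control and 0.802, 0.848 and 0.772 CPM in knockdown libraries, without overlap. Its log2 fold change of -0.75 (SE 0.15) had an adjusted p of 0.077 in limma. The subunits act as one ring, and their log2 fold changes spread from that value to the positive one of Mcm4. Mcm2 was at 7.58, 5.82 and 7.31 CPM in control and 7.29, 4.79 and 6.4 CPM in knockdown libraries. Mcm6 was at 4.4, 4.5 and 4.56 CPM in control and 4.02, 3.12 and 4.87 CPM after knockdown. Mcm7 was at 7.63, 8.12 and 7.94 CPM in control and 6.96, 6.89 and 7.9 CPM after knockdown. The groups overlapped in all 3. Mcm3 had the lowest level of the 6, at 0.0899 to 0.198 RPKM, with a log2 fold change of -0.39 (adjusted p = 0.39 in limma).

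Of the 5 models of the replication fork and nucleotide synthesis, 4 were lower in all 3 batches, 0 were called in limma and 3 had p under 0.05 before adjustment. Pcna, the sliding clamp of DNA polymerases, was at 49.6, 35.5 and 48.4 CPM in control and 43.8, 29.7 and 41.4 CPM in knockdown libraries. The log2 fold change was -0.22 (SE 0.049, adjusted p = 0.091 in limma), with overlap between groups because batch 2 was lower than the others in both. Rrm1, the large subunit of ribonucleotide reductase, which makes deoxynucleotides, was at 34.7, 28.8 and 38.6 CPM in control and 33.9, 26.3 and 33.7 CPM after knockdown. Rrm2, the small subunit, had 2 models. XLOC_025699 on chromosome 6 was at 1.13, 1.5 and 1.54 CPM in control and 0.85, 0.885 and 1.11 CPM in knockdown libraries (log2 fold change -0.53, adjusted p = 0.13 in limma). XLOC_014670 on chromosome 19 has a single transcript of 1 exon, with a log2 fold change of -0.46 (adjusted p = 0.098 in limma). Reads may have been divided between these copies of one name, and with both summed the log2 fold change was -0.49 (adjusted p = 0.072 in limma). Tyms, the thymidylate synthase, was at 6.87, 5.93 and 8.78 CPM in control and 7.63, 6.86 and 8.77 CPM in knockdown libraries.

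Among the 12 models of S phase and mitosis 11 were negative and 5 were lower in all 3 batches, with a median log2 fold change of -0.25. Limma called 0, and 2 (Ccna2 and Top2a) had p under 0.05 before adjustment. Ccna2, cyclin A2, was at 0.456, 0.614 and 0.979 CPM in control and 0.289, 0.535 and 0.533 CPM in knockdown libraries. Top2a, the topoisomerase of dividing cells, was at 1.89, 3.75 and 2.3 CPM in control and 1.65, 2.84 and 1.92 CPM after knockdown. The adjusted p in limma was 0.19 for both. Cdk1, the mitotic kinase, was at 1.04, 1.2 and 1.86 CPM in control and 1.12, 0.848 and 1.36 CPM in knockdown libraries. Aurka, a spindle kinase, was at 10.7, 6.19 and 8.53 CPM in control and 10.8, 5.55 and 8.38 CPM after knockdown. Both overlapped between groups. The B cyclins Ccnb1 and Ccnb2, partners of Cdk1, had log2 fold changes of -0.11 and -0.11, and Aurkb, the kinase of the chromosomal passenger complex, -0.028. The log2 fold changes of Plk1, Bub1, Bub1b and Cdc20, of mitotic entry and the spindle checkpoint, were -0.51, -0.30, -0.29 and -0.23, with adjusted p values in limma of 0.27, 0.36, 0.44 and 0.42.

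Mki67, which encodes the proliferation marker Ki-67, was the exception in sign and differed most between batches. It was at 1.56, 13 and 0.787 CPM in control and 2.45, 15 and 0.744 CPM in knockdown libraries, so that both libraries of batch 2 were far above the rest. The difference between groups was not past the threshold (log2 fold change 0.29, adjusted p = 0.24 in limma). In control and knockdown libraries of batch 2, Top2a was at 3.75 and 2.84 CPM and Cdk1 at 1.20 and 0.848 CPM, nearer to their values in the other batches. These batch differences were singled out after the values were seen.

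Neighbouring pathways were described from lists of other genes. Of 32 partners of the replication fork, 23 were negative with a median log2 fold change of -0.12, and limma called 0, with 4 at p under 0.05 before adjustment. Rfc2, a subunit of the clamp loader, had the lowest p of that list (log2 fold change -0.32, adjusted p = 0.12 in limma). Of 36 models of mitosis, kinetochore and checkpoint 25 were negative with a median of -0.09, and limma called 0, with 6 at p under 0.05 before adjustment. There the lowest p was that of Cdc25b, the phosphatase that activates Cdk1, with a positive log2 fold change of 0.24 (adjusted p = 0.13 in limma). Neither list held a called gene.

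Lists of regulators had medians above 0. Of 18 tested genes of the pocket proteins, the E2F family and the DREAM complex, 8 were negative, the median was 0.016 and limma called 0, with 2 at p under 0.05 before adjustment. Mycn, a Myc family factor, was lowest in p at a log2 fold change of 0.58 (adjusted p = 0.071 in limma). Of 17 other Cdk inhibitors and regulators 6 were negative, the median was 0.062 and limma called 0, with 1 at p under 0.05 before adjustment. That gene was Ezh2, a histone methyltransferase that silences Cdkn2a, at 0.37 (adjusted p = 0.059 in limma). Neither gene passed the threshold.

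The last lists lie close to genes called here. Of 19 tested genes of homologous recombination and partners of Swi5, 13 were negative, the median was -0.07 and limma called 0, with 5 at p under 0.05 before adjustment. Sfr1, the partner of Swi5, was at 40, 46.7 and 45.5 CPM in control and 40.3, 43.3 and 42 CPM in knockdown libraries (log2 fold change -0.07, adjusted p = 0.45 in limma), with overlap between groups. Bard1, the partner of Brca1, had the lowest p of this list (log2 fold change -0.63, adjusted p = 0.083 in limma). Of 16 p53 targets other than Cdkn1a, 12 were positive, the median was 0.13, and 8 had p under 0.05 before adjustment. Tp53inp1, a p53-induced stress protein, rose from 43.3, 25.6 and 52.7 CPM to 58.3, 42.8 and 73.5 CPM (log2 fold change 0.54, adjusted p = 0.046 in limma). Perp, a p53 target of cell adhesion, fell from 27.2, 18.1 and 32.1 CPM to 13.3, 10.4 and 17.8 CPM (log2 fold change -0.91, adjusted p = 0.036 in limma). The 2 called p53 targets of this list thus moved in opposite directions, while Cdkn1a, which is outside the list, rose. Over all genes tested, limma called 1.71%, and 23.9% had p under 0.05 before adjustment. The list was chosen with earlier results of these data known, so nothing is read from its shares.

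Some markers of other cell types differed between the groups. The summed levels of the groups overlapped in each list, but the libraries are paired by batch. Within every batch the stellate, the alpha, delta and PP, and the duct sums were higher after knockdown, and the acinar sum was lower. The duct sum was mostly Krt7 (107 to 183 RPKM), and the alpha, delta and PP sum mostly Gcg (4728 to 14249 RPKM). Krt19, also of the duct list, was at 19.1, 7.93 and 9.16 RPKM in control batches 1, 2 and 3. After knockdown Krt19 was at 17.3, 6.51 and 9.04 RPKM, lower in every batch. The immune and endothelial sums moved in different directions between batches. Of 10 tested macrophage and immune markers 9 were positive with a median log2 fold change of 1.01, and their summed level was 12.1 to 15 RPKM in control and 11.8 to 23.5 RPKM in knockdown libraries. Lyz2 rose and C1qa fell at an adjusted p below 0.05 in limma. Of 10 stellate and fibroblast markers 8 were positive, with sums of 13.4 to 31.0 RPKM and 28.4 to 36.8 RPKM, and Col3a1 and Col5a1 rose. The 2 negative ones were Pdgfra (log2 fold change -0.79, adjusted p = 0.20 in limma) and Pdgfrb (-0.19, adjusted p = 0.65 in limma). Of 9 acinar markers 8 were negative, with sums of 153 to 438 RPKM and 113 to 327 RPKM, and Ctrb1 fell. Alpha, delta and PP cell markers were positive in 7 of 8, with sums of 5535 to 14485 RPKM and 7392 to 15785 RPKM. Of 5 tested duct markers 4 were positive (sums 122 to 163 and 140.3 to 209 RPKM), and of 4 tested endothelial markers 1 was positive (sums 2.85 to 3.79 and 2.54 to 4.32 RPKM). In these last 3 lists limma called 0 markers, and before adjustment 3, 1 and 0 had p under 0.05. Defining markers such as Ptprc (immune), Cdh5 (endothelial) and Cftr (duct) were at or near 0. The part of these cells in the values of the cell cycle genes was not tested.

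Transcript use was tested as well, since the 48 models hold 116 assembled transcripts. In 17 models a single transcript was assembled. The test covered 69 transcripts of 25 genes, and 1 transcript changed its use, where 0.315% of the 31429 transcripts tested in all were called. It belongs to Orc2, the origin recognition subunit, which was also called by the Simes test over its transcripts, as were 0.734% of the 9538 genes tested in this way.

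TCONS_00071507 took 9.12%, 9.86% and 12.9% of the summed Orc2 RPKM in control batches 1, 2 and 3 and 59.6%, 65.9% and 57.4% after knockdown. It went from a minor to the main Orc2 transcript in every batch, and the groups did not overlap. Relative to the other tested Orc2 transcripts its log2 change in limma diffSplice was 3.33 (adjusted p = 0.037). TCONS_00071508, which matches the reference transcript, went from 45.9%, 75.6% and 71% to 36.6%, 30% and 20% (adjusted p = 0.089 in limma). TCONS_00071504 held 43.2%, 2.35% and 7.6% in control and was listed at 0 in every knockdown library (adjusted p = 0.13 in limma). TCONS_00071506 held 1.71%, 12.2% and 8.55% in control and 3.79%, 4.09% and 22.6% after knockdown. Only the first of these shifts passed the threshold.

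The gene lies on the minus strand of Rnor_5.0 at chr9:65156104-65194614. TCONS_00071507 is 4974 nt long with 18 exons, and the reference transcript is 1821 nt long with 17. The pair share 1819 nt and all 16 introns of the reference transcript. They differ at both ends, by a further first exon at chr9:65194285-65194614 and by a last exon of 2944 nt at chr9:65156104-65159047. That last exon is also part of TCONS_00071504, TCONS_00071505 and TCONS_00071506, so it does not mark TCONS_00071507 alone. Nor does the first exon, since TCONS_00071506 starts with an exon at chr9:65194285-65194567, inside it. TCONS_00071506 and TCONS_00071507 share 4921 nt. Reads in shared exons cannot be assigned to a single transcript by sequence alone. The shares thus depend on reads of the parts that differ and on the authors' estimation. This also divides the 2 scales of the gene level. Orc2 in CPM was slightly higher after knockdown, whereas its summed RPKM went from 7.62, 11.9 and 8.09 in control to 6.2, 8.63 and 5.73 in knockdown libraries, since a read counts for less in a longer transcript. The call of TCONS_00071507 was lost without the block (adjusted p = 0.11) and without any 1 of the batches (0.055 to 0.08).

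**Figure D4:**
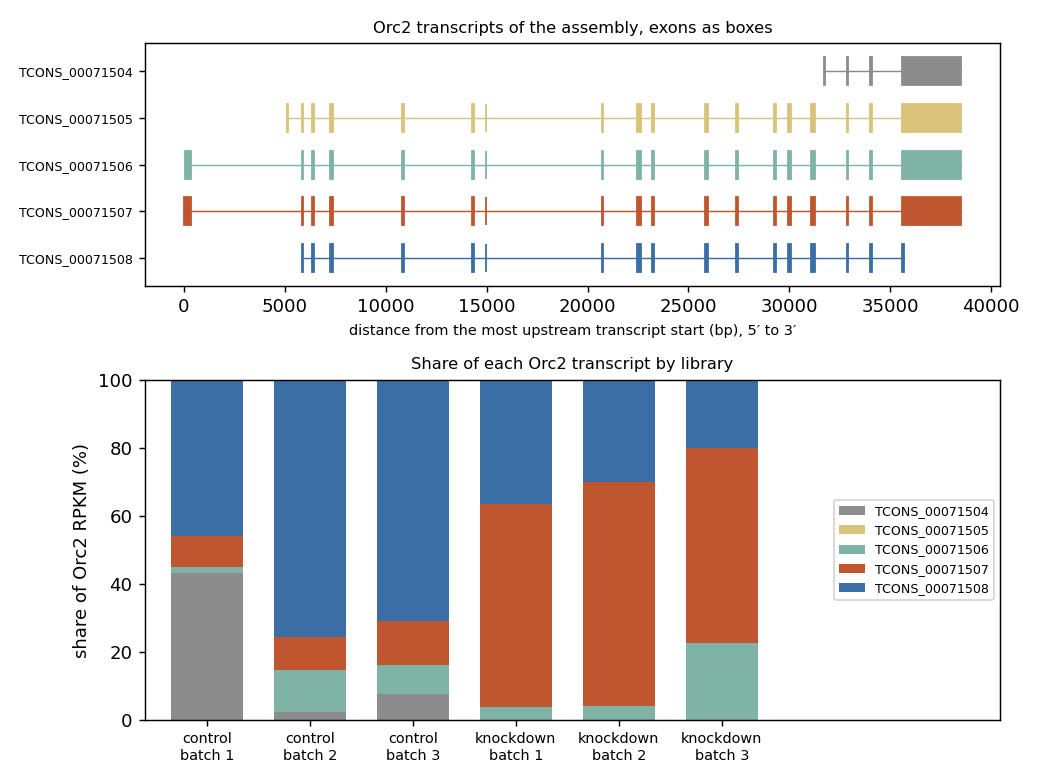
Exons of the 5 assembled Orc2 transcripts by distance from the most upstream start in base pairs (top), and the share of each in the summed Orc2 RPKM of the 6 libraries in percent (bottom). TCONS_00071507 makes up 9.12% to 12.9% of control libraries and 57.4% to 65.9% of knockdown libraries.

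Among the other members at 1 RPKM or more with a change in mean share over 20 percentage points, none was called with all 3 batches. In Orc4, TCONS_00045422 took up 7.62%, 11.2% and 17.4% of control and 25.8%, 53.4% and 27.8% of knockdown libraries (adjusted p = 0.15 in limma). TCONS_00045423, the reference form, held 92.4%, 63.9% and 82.6% in control and 74.2%, 38.3% and 63.3% after knockdown. Each batch moved the same way, and the groups of TCONS_00045422 did not overlap. Without batch 3 both were called (adjusted p = 0.038 for each in limma), as were TCONS_00071504 of Orc2 and TCONS_00049890 of Ccnd2. In Tyms, TCONS_00072148 took up 84.6%, 93.1% and 23.8% of control and 34.8%, 2.11% and 5.23% of knockdown libraries (adjusted p = 0.37 in limma). Control batch 3 was unlike the other control libraries here, and the groups overlapped. In Mcm4 the pattern rested on 1 library, as TCONS_00015820 held 89.0% in control batch 3 and was listed at 0 in the other 5. In both genes the form that rose most in mean share has nearly the same bases. Tyms TCONS_00072147 shares 1309 of the 1310 nt of TCONS_00072148, and Mcm4 TCONS_00015821 shares 3337 of the 3339 nt of TCONS_00015820. These shares thus depend on the authors' estimation. Members under 1 RPKM also had share changes of that size (Aurkb, Ccnb1, Ccnb2, Cdk2, Cdkn1c, E2f1, Mcm3, Mcm5, Mki67 and Top2a), and none of their transcripts that were tested was called. In Mcm5, for one, TCONS_00033093 held 66%, 63.3% and 41.6% of control batches 1, 2 and 3 and 0%, 0% and 27% after knockdown (adjusted p = 0.61 in limma). Of the 69 transcripts tested, 30 were listed at 0 in at least 1 library, and such a value can be a failed estimate.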

How the data were processed

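Poly(A) RNA from 6 libraries (3 control, 3 Nova1 knockdown) was sequenced, and per the submitters' processing notes TopHat aligned the reads to Rnor_5.0. The authors deposited a merged assembly with 60887 transcripts at 24102 loci, in which Cufflinks is named. They also deposited RPKM, length and estimated counts of reads for each transcript in each library, as attribute text. How reads were shared between transcripts, and whether by strand, is not given in the sources used here. Of the deposited read values above 0, 18.2% to 18.8% were whole as written. Summed per gene, 92.6% to 92.8% were whole numbers and 92.5% to 92.8% even whole numbers (tolerance 0.01). Nearly all whole sums were therefore even. Whether each fragment was counted as 2 reads was not tested, so independent counts may be fewer than reads. The number of reads limits the precision of each value.

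Reads were summed per gene model, scaled with TMM factors computed on the filtered genes (30% trimmed by ratio, 5% by level) and given as CPM. A gene was kept when 3 or more libraries reached what 10 reads are worth at median depth and its reads summed to 15 or more, which left 15983 genes. With batch as a block, the voom method of limma 3.58.1 under R 4.3.3 was fitted on the whole table. This leaves 2 residual degrees of freedom. The tests were moderated, so the variance of each gene also drew on that of the other genes. Adjustment was by Benjamini-Hochberg, with a threshold of 0.05. Transcript use was tested with limma diffSplice on 31429 transcripts with the same block, and shares are percentages of summed RPKM. Both fits were also run on simulated reads as a check of the code. The simulated transcripts had no batch differences and no errors in the sharing of reads. These runs therefore do not give the error rate in the data.

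Groups and batch numbers come from the titles, and the series' design text states that each batch was studied under both conditions, so batch numbers pair the libraries. Same-batch deviations from the group means correlated at 0.38, 0.72 and 0.55.

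The members and gene lists were chosen with earlier results of these data known. Members at 1 RPKM or more in a group mean, and called members, are given per library. Of each other list the called genes, or the one with the lowest p, are named, as are transcripts of called genes and of members at 1 RPKM or more with a change in mean share over 20 percentage points. Cell cycle genes given by summary only, Sfr1, the batch differences of Mki67 and the transcripts of members under 1 RPKM were named beyond that rule after their values were seen. Some cell type markers were also named after their values were seen. RefSeq promoters of GRCr8 were used for sequences only, and no coordinates were converted between builds. Alternatives covered the block, each batch, scaling, filters, RPKM scales, transcript length and minor transcripts. Scaling factors from all genes before the filter, and both loci of a name summed, were added after the data were seen.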

Additional observations from a re-analysis of the deposited data

How the results depend on the processing

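With 2 residual degrees of freedom and all calls at adjusted p values of 0.036 or more, the number of calls moved easily, while log2 fold changes of the 4 called genes kept their sign under every alternative. Without the replicate block, which ignores the pairing by batch, limma called 0 members and 0 member transcripts, and Nova1 was at -1.12 with an adjusted p of 1.00. Leaving out 1 batch gave 0 to 1 members, 0 to 4 member transcripts, a Nova1 log2 fold change of -1.25 to -0.98 and a member median of -0.16 to -0.065. The main count of 4 members became 2 with library totals alone, 1 with scaling factors from all genes before the filter, 2 with no filter, 1 with a filter 5 times stricter and 0 on log2(RPKM + 1) and log2(RPKM + 0.1). It was 4 with median of ratios scaling and 5 with transcript length correction. All genes called were 274 in the main analysis, and 250, 91, 72, 174, 119, 0, 0 and 582 with median of ratios, library totals, factors from all genes, no filter, the stricter filter, both RPKM scales and length correction. Without batches 1, 2 and 3 they were 4, 0 and 75, and 0 without the block. On log2(RPKM + 1) the member median was -0.041 and Nova1 was at -0.54, and on log2(RPKM + 0.1) Nova1 was at -0.73. Member transcripts called, 1 in the main analysis, were 2 with no filter and 0 with the stricter filter, on log2(RPKM + 0.1) and among transcripts with at least 10% of their gene.

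Signs turned only for genes and transcripts that were not called. Leaving out 1 batch gave log2 fold changes from -0.00497 to 0.12 for Cdkn2c, -0.033 to 0.033 for Ccnd1, -0.074 to 0.054 for Ccnd2, -0.051 to 0.13 for Cdk2, -0.019 to 0.043 for Orc4, -0.095 to 0.11 for E2f1, -0.033 to 0.059 for Rb1 and -0.28 to 0.18 for Ccnb2. Library totals gave 0.055 for Ccnd1, 0.026 for E2f1, 0.0065 for Aurka and 0.022 for Aurkb. The RPKM scales gave 0.048 and 0.049 for Ccnd1, -0.37 and -0.41 for Orc2, 0.045 and 0.093 for Ccnb1, and the second gave 0.0093 for E2f1. Length correction gave -0.073 for Ccnd2, -0.044 for Cdk6, -0.081 for Orc4 and -0.025 for Rb1, and no replicate block 0.014 for E2f1. Among transcripts, Mcm4 TCONS_00015821 was at -0.13 and TCONS_00015822 at 0.13 with the stricter filter, and the latter at 0.24 with no filter. With 1 batch left out, Orc2 TCONS_00071506 lay between -1.25 and 0.72 (0.0065 without batch 1) and Tyms TCONS_00072149 between -0.21 and 2.69, and the former was at 0.80 on log2(RPKM + 0.1). Apart from Orc2, where longer transcripts lower the RPKM, the cause was not tested.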
